A study of Oryctolagus cuniculus with 6 samples.

Results

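The genes described here act in the G2 phase and in mitosis: cyclins and CDK1, mitotic kinases, and the proteins of the spindle checkpoint, the kinetochore, the spindle and cytokinesis, together with the proliferation marker MKI67. They were chosen by gene symbol from a fixed list of 41 genes. All 41 are named by their symbol among the 17396 genes of the files, and all 41 passed the filter on low counts, which kept 14003 genes. The libraries came from the facial nerves of wild-type male Japanese white rabbits aged 3 to 4 months. In the FNI group (facial nerve injury) the nerve had been transected at its main trunk, and in the FNI+I-125 group the nerve had been cut and a radioactive I-125 seed of 0.8 mCi had been placed near it. Both groups carried the transection, no library of an uninjured nerve was analysed here, and tissue was taken on day 14 from 3 rabbits per group. Each library is whole tissue, so more cells that hold mitotic RNA and more mitotic RNA per cell cannot be told apart in any result given here. Whether such cells went on to divide was not measured in these libraries.

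Cells that divide make these transcripts in a wave that starts in late S phase and ends after mitosis, so that in a tissue they mark dividing cells of any type. CDK1 bound to cyclin B starts mitosis, the Aurora and Polo-like kinases build the spindle, and the kinetochore ties each chromosome to spindle microtubules. The spindle checkpoint holds the cell until every chromosome is attached, after which the anaphase promoting complex has securin and cyclin B destroyed and the cell is pinched apart. After a peripheral nerve is cut, Schwann cells, fibroblasts, endothelial cells and macrophages of the nerve are all known to divide. Ionizing radiation is known to stop dividing cells at checkpoints in G1 and G2, with the CDK inhibitor p21 (CDKN1A) as a main arm of the p53 response.

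Values are given as CPM, counts scaled to a common library size after TMM normalization, and log2 fold changes compare the FNI+I-125 group with the FNI group. Total counts were 16031151 to 16798012 per library, and the 41 genes together took 0.0252% to 0.0700% of them. Several libraries stood apart in markers of other tissues. FNI replicate 3 had the highest summed level of the 8 Schwann cell markers (32997.5 CPM, against 682 to 6933 CPM in the other 5 libraries). FNI+I-125 replicates 1 and 2 held 3244 and 2971 CPM of the skeletal muscle markers measured, against 14.7 to 60.7 CPM elsewhere, and FNI replicate 2 held 48637 CPM of salivary gland markers.

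Most of the mitotic genes had higher counts in the nerves with a seed. The log2 fold change was above 0 for 40 of the 41 genes, where 51.1% of all genes tested lay above 0 and 48.9% below. The median log2 fold change of the 41 was 1.16, a 2.23-fold difference, beside a median of 0.01 over all genes tested. The criterion of the study was an adjusted p under 0.05 with a log2 fold change of 1.5 or more in either direction. The study, which does not name its test, reported genes called in both directions. With edgeR's quasi-likelihood test and Benjamini-Hochberg adjusted p-values, the criterion called 0 of the 41 genes and 0% of the 14003 genes. The smallest adjusted p among the 41 genes was 0.280.

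At an unadjusted p under 0.05 in the same edgeR test, 23 of the 41 genes were higher and 0 were lower, where 9.23% of all genes tested were higher and 7.73% were lower. For 27 of the 41 genes every FNI+I-125 library lay above every FNI library, where 14.8% of all genes tested did so, and for 0 of the 41 every FNI+I-125 library lay below, where 12.3% did so. Among the 23 genes, the fold difference ran from 1.68 for TOP2A to 3.31 for DLGAP5, with a median of 2.59. A log2 fold change of 1.5 or more together with an unadjusted p under 0.05 was seen for 7 genes, CDK1, CCNB1, CCNB2, AURKA, NDC80, BIRC5 and DLGAP5, where 2.77% of all genes tested were that much higher and 2.19% that much lower. The Wald test of DESeq2 gave 5 of the 41 genes as higher and 0 as lower at a Benjamini-Hochberg adjusted p under 0.05, namely MKI67, CCNB1, CCNB2, KIF11 and KIF20A, where it called 3.71% of 14240 genes higher and 2.49% lower. CCNB1 and CCNB2 also passed the fold change criterion with DESeq2, as did 3.23% of the 14240 genes in either direction.

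The genes had nearly the same order of libraries. FNI+I-125 replicate 1 was the highest library for 36 of the 41 genes, and FNI replicate 3 was the lowest for 37. Summed over the 41 genes, the level was 315, 335 and 240 CPM in FNI replicates 1, 2 and 3 and 759, 379 and 489 CPM in FNI+I-125 replicates 1, 2 and 3. FNI replicates 1 and 2 were close to each other, with the latter higher for 21 genes and a median ratio of 1.03. FNI replicate 3 stood at a median of 0.525 times FNI replicate 1. Within the FNI+I-125 group, replicate 1 exceeded replicate 2 for 38 genes by a median ratio of 2.09. FNI+I-125 replicate 2, the lowest library of its group by the summed level, still exceeded FNI replicate 2 for 32 of the 41 genes, with a median ratio of 1.15. FNI+I-125 replicate 3 exceeded FNI replicate 1 for 40 genes and FNI replicate 2 for 39. The within-group spread was wide in both groups, with a median coefficient of variation of 38.3% among the FNI libraries and 41.1% among the others.

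**Figure D1:**
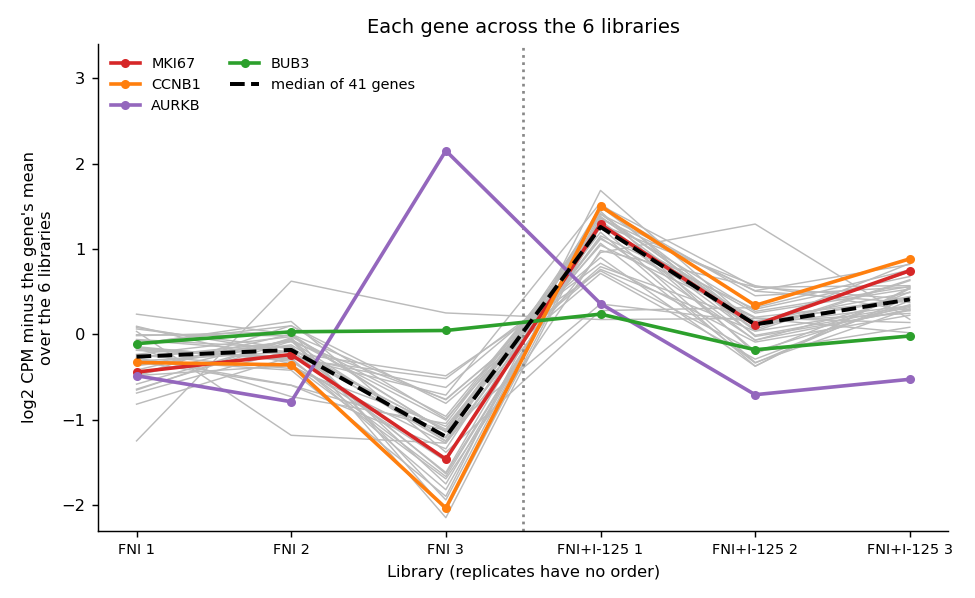
Each line is 1 gene, drawn as log2 CPM minus the mean of that gene over the 6 libraries (y axis) for the 6 libraries (x axis). Grey lines are the other members, and the dashed line is the median of the 41 genes. Nearly all lines have their low point in FNI replicate 3 and their high point in FNI+I-125 replicate 1, while AURKB peaks in FNI replicate 3 and BUB3 stays flat.

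MKI67 encodes Ki-67, the protein that coats mitotic chromosomes and is used to count dividing cells. Its level was 26.0, 30.0 and 12.8 CPM in the FNI libraries and 86.2, 38.1 and 59.2 CPM in the FNI+I-125 libraries. All FNI+I-125 libraries lay above all FNI libraries, and the means were 22.9 ± 8.98 and 61.2 ± 24.1 CPM (SD, n = 3 each). The log2 fold change of MKI67 was 1.42 (standard error, SE, 0.42, unadjusted p = 0.0151 and adjusted p = 0.280 in edgeR's test). The study's Ki67 staining of rabbit facial nerve, a measure of protein and not RNA, went the other way. It reported less Ki67 after injury and less again with the seed. TOP2A, the topoisomerase that untangles sister chromatids, stood at 21.7, 24.7 and 15.5 CPM against 44.4, 26.9 and 32.9 CPM. Its groups did not overlap either, with a smaller log2 fold change of 0.75 (SE 0.26), and FNI+I-125 replicate 2 lay just above the highest FNI library.

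**Figure D2:**
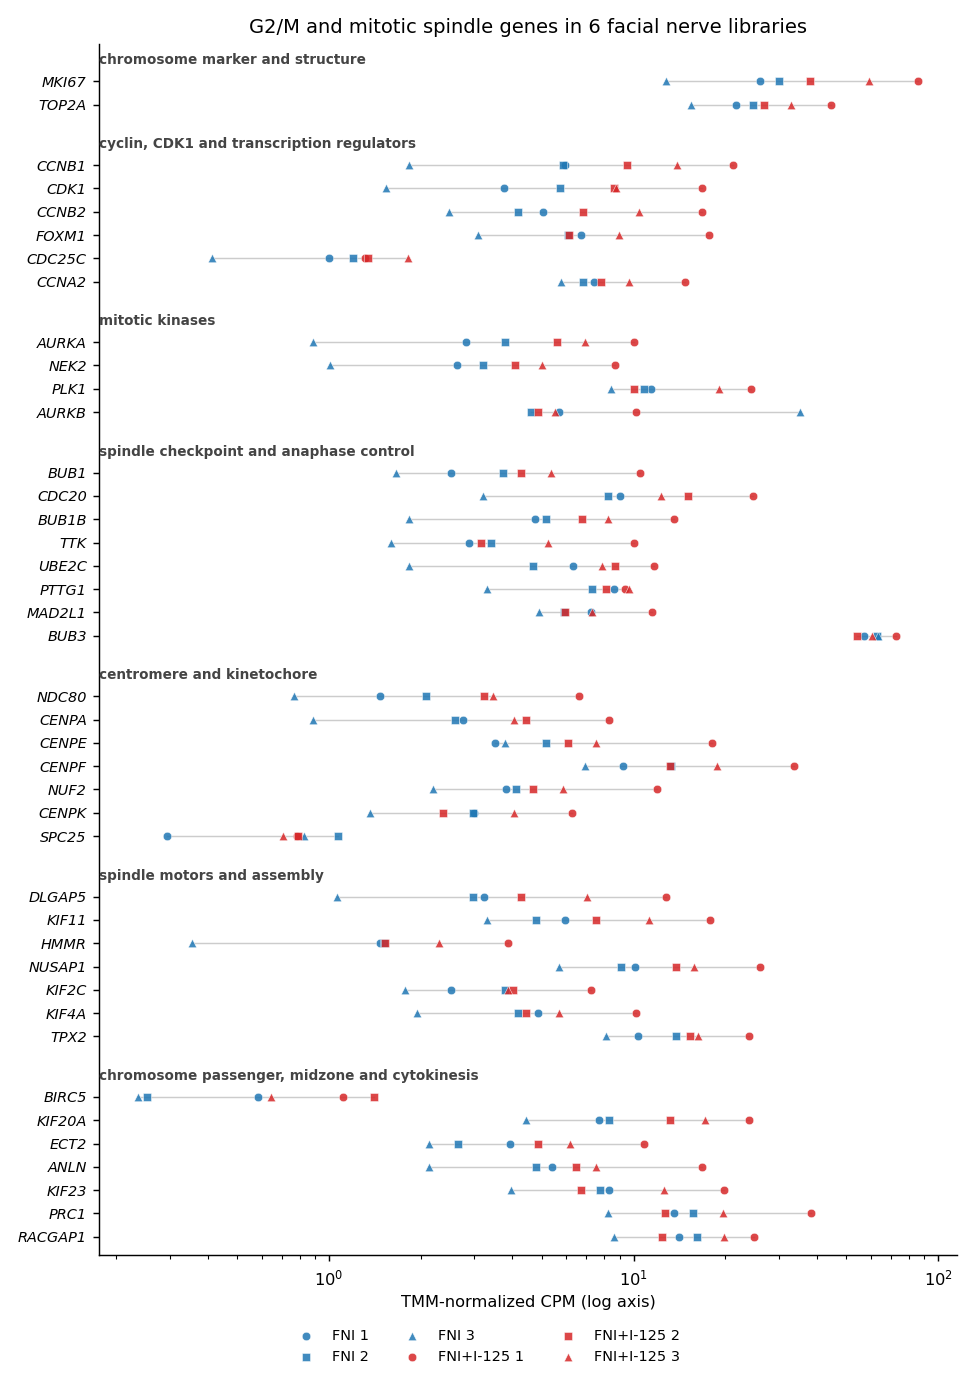
Level of each of the 41 genes in CPM (log x axis) in the 3 FNI libraries (blue) and the 3 FNI+I-125 libraries (red), grouped by role, with 1 point per library and a grey line over the range. For 27 genes all red points lie to the right of all blue points, and for most genes the rightmost point is FNI+I-125 replicate 1.

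Of the 6 cyclin, CDK1 and transcription regulator genes, 3 were higher at an unadjusted p under 0.05 and 5 did not overlap between the groups. The shares of all genes tested were 9.23% higher at that p and 14.8% higher without overlap. CCNB1, the cyclin that activates CDK1 at the entry into mitosis, had 5.97, 5.86 and 1.83 CPM in the FNI libraries and 21.2, 9.50 and 13.9 CPM in the FNI+I-125 libraries. The lowest of the latter, replicate 2, lay above all FNI libraries. The log2 fold change of 1.70 (SE 0.53, adjusted p = 0.280 in edgeR's test) was a 3.26-fold difference. CDK1 itself, the kinase that drives mitosis, had 3.75, 5.73 and 1.54 CPM against 16.8, 8.64 and 8.75 CPM. It differed 3.10-fold, with no overlap between the groups. CCNB2, the other B-type cyclin, had 5.04, 4.16 and 2.48 CPM against 16.7, 6.82 and 10.4 CPM and a log2 fold change of 1.54 (SE 0.43). CCNA2, the cyclin of S phase and G2, was at a log2 fold change of 0.69 (SE 0.29), without overlap and with an unadjusted p of 0.0558 (adjusted p = 0.301, edgeR). FOXM1, the transcription factor that switches on many G2/M genes, had 6.74, 6.11 and 3.07 CPM against 17.7, 6.15 and 8.98 CPM. FNI+I-125 replicate 2 lay inside the FNI range, and the log2 fold change of FOXM1 was 1.04 (SE 0.49). CDC25C, the phosphatase that removes the inhibitory phosphate from CDK1, had 7 to 19 counts per FNI library and 20 to 31 counts per FNI+I-125 library, a log2 fold change of 0.77 (SE 0.50).

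The 4 mitotic kinase genes did not share a direction. AURKA, the kinase of centrosomes and spindle poles, had 2.81, 3.78 and 0.89 CPM in the FNI libraries and 10.1, 5.60 and 6.93 CPM in the FNI+I-125 libraries. The groups did not overlap, FNI replicate 3 was far below the other libraries, and the log2 fold change was 1.59 (SE 0.56, adjusted p = 0.280 in edgeR's test). NEK2, a kinase that splits the centrosomes, differed 2.59-fold, and its groups did not overlap. PLK1, the Polo-like kinase of spindle assembly and cytokinesis, had 11.4, 10.8 and 8.45 CPM against 24.2, 10.04 and 19.0 CPM. FNI+I-125 replicate 2 fell within the FNI values of PLK1, and its unadjusted p was 0.0610 (adjusted p = 0.306, edgeR).

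AURKB, the kinase of the chromosomal passenger complex, was the one gene of the 41 with a negative log2 fold change, at -1.15 (SE 0.86, adjusted p = 0.482 in edgeR's test). FNI replicates 1, 2 and 3 held 97, 73 and 597 counts of AURKB, and FNI+I-125 replicates 1, 2 and 3 held 156, 80 and 94. The single high library was FNI replicate 3, in which 37 of the other members were lowest. Without it, the log2 fold change of AURKB was 0.39. Whether reads were counted by strand is not given in the sources used here, so reads of an antisense or overlapping transcript at AURKB cannot be told apart from its own.

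Of the 8 genes of the spindle checkpoint and of anaphase control, 3 were higher at an unadjusted p under 0.05 and 4 did not overlap. Among all genes tested, 9.23% were higher at that p and 14.8% were higher without overlap. BUB1, a checkpoint kinase at the kinetochore, stood at 2.52, 3.72 and 1.65 CPM in the FNI libraries and 10.46, 4.26 and 5.34 CPM in the FNI+I-125 libraries, a 2.54-fold difference. BUB1B, which encodes the checkpoint protein BUBR1, differed 2.43-fold. CDC20, the activator of the anaphase promoting complex that the checkpoint holds back, had 9.02, 8.25 and 3.19 CPM against 24.6, 15.0 and 12.3 CPM. Its log2 fold change was 1.34 (SE 0.47), and the groups did not overlap. UBE2C, the ubiquitin-conjugating enzyme of that complex, did not overlap between the groups and was at an unadjusted p of 0.0518 (adjusted p = 0.296, edgeR). The checkpoint kinase TTK was at a log2 fold change of 1.23 (SE 0.52), with FNI+I-125 replicate 2 inside the FNI range.

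The other genes of this role were at smaller values. MAD2L1, the checkpoint protein that binds CDC20, was at a log2 fold change of 0.45 (SE 0.32). PTTG1, which encodes securin, was at 0.50 (SE 0.37), and FNI replicates 1 and 2, at 8.61 and 7.31 CPM, stood near the FNI+I-125 values of 8.10 to 9.69 CPM. BUB3, a checkpoint protein that also acts outside mitosis, was at 57.0, 62.8 and 63.5 CPM against 72.5, 54.3 and 60.7 CPM. The groups of BUB3 overlapped widely, and its log2 fold change was 0.03 (SE 0.14, adjusted p = 0.917 in edgeR's test).

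Of the 7 centromere and kinetochore genes, 5 were higher at an unadjusted p under 0.05, where 9.23% of all genes tested were. NDC80, the part of the kinetochore that grips microtubules, had 1.46, 2.08 and 0.77 CPM in the FNI libraries and 6.60, 3.23 and 3.46 CPM in the FNI+I-125 libraries. FNI+I-125 replicate 1 stood well above the rest, and the log2 fold change was 1.62 (SE 0.50, adjusted p = 0.280 in edgeR's test). NUF2, its partner in the same complex, differed 2.22-fold, and neither gene overlapped between the groups. SPC25, another subunit of that complex, had 5 to 17 counts per library and a log2 fold change of 0.06 (SE 0.57), and its groups overlapped. CENPA, the histone variant that marks centromeres, differed 2.69-fold, and CENPE, the kinetochore motor, differed 2.54-fold, at a log2 fold change of 1.34 that was 0.71 without FNI+I-125 replicate 1. CENPF, a large kinetochore protein, had 13.3 CPM in FNI replicate 2 and 13.2 CPM in FNI+I-125 replicate 2, and it was the single gene among the 23 whose groups overlapped. CENPK, of the inner kinetochore, was at a log2 fold change of 0.80 (SE 0.50).

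**Figure D3:**
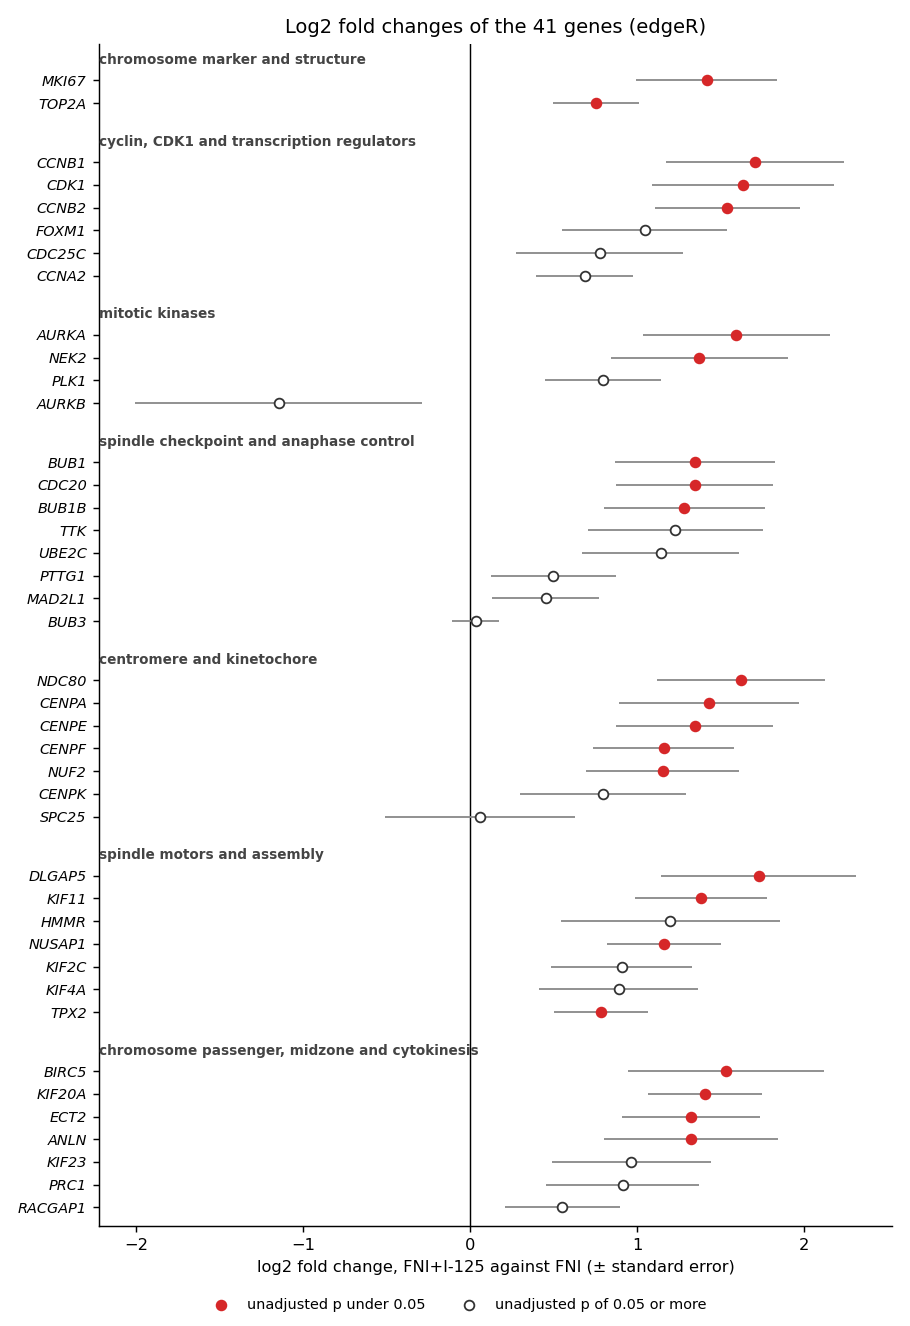
Log2 fold change of each gene, FNI+I-125 against FNI (x axis), with its standard error as a bar, grouped by role. Filled points are at an unadjusted p under 0.05 (23 genes), open points are not (18 genes), and AURKB, at -1.15, is the one point left of 0.

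All 7 spindle motor and assembly genes had a log2 fold change above 0, where 51.1% of all genes tested did. At an unadjusted p under 0.05, 4 were higher, where 9.23% of all genes tested were. In 6 of the 7 the groups did not overlap, where 14.8% of all genes tested were higher without overlap. DLGAP5, which bundles microtubules near the chromosomes, had the largest log2 fold change of the 41 genes. Its level was 3.22, 2.96 and 1.06 CPM in the FNI libraries and 12.7, 4.26 and 7.04 CPM in the FNI+I-125 libraries, a log2 fold change of 1.73 (SE 0.58, adjusted p = 0.280 in edgeR's test). KIF11, the motor that pushes the spindle poles apart, had 5.97, 4.79 and 3.31 CPM against 17.8, 7.55 and 11.3 CPM. The log2 fold change of KIF11 was 1.38 (SE 0.40). NUSAP1, a microtubule-bundling protein, had 10.1, 9.07 and 5.67 CPM against 25.9, 13.8 and 15.9 CPM, a 2.23-fold difference. The spindle assembly factor TPX2, which activates Aurora A, differed 1.72-fold without overlap. HMMR, a spindle protein, KIF2C, which takes microtubules apart, and KIF4A, a motor on chromosome arms, had log2 fold changes of 1.20, 0.91 and 0.89. Their unadjusted p-values in edgeR's test were 0.118, 0.0755 and 0.111 (adjusted p = 0.360, 0.318 and 0.354), and of the 3 only KIF4A overlapped between the groups.

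Of the 7 genes of the chromosomal passenger complex, the spindle midzone and cytokinesis, 4 were higher at an unadjusted p under 0.05 and did not overlap. Over all genes tested, 9.23% were higher at that p and 14.8% were higher without overlap. KIF20A, a motor needed for the final cut between daughter cells, had the smallest p-value of the 41 genes. Its level was 7.67, 8.32 and 4.43 CPM in the FNI libraries and 23.9, 13.1 and 17.1 CPM in the FNI+I-125 libraries, a log2 fold change of 1.41 (SE 0.34, unadjusted p = 0.00598 and adjusted p = 0.280 in edgeR's test). ANLN and ECT2, which organize the contractile ring, were both at a log2 fold change of 1.32 (SE 0.52 and 0.41). BIRC5 (survivin), a subunit of the passenger complex, had 10, 4 and 4 counts under injury alone and 17, 23 and 11 counts with the seed, so its log2 fold change of 1.53 (SE 0.59) rests on few counts. KIF23, PRC1 and RACGAP1, which build the central spindle, were at log2 fold changes of 0.97, 0.91 and 0.55, and FNI+I-125 replicate 2 lay within the FNI range for each of them.

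FNI+I-125 replicate 2 was the library that most often closed the gap between the groups. It lay above all FNI libraries for 27 genes, against 39 genes for FNI+I-125 replicate 1 and 38 for FNI+I-125 replicate 3. For 11 of the 14 overlapping genes it was the sole FNI+I-125 library not above all FNI libraries. These 11 were PLK1, MAD2L1, TTK, CENPF, CENPK, KIF23, KIF4A, PRC1, PTTG1, FOXM1 and RACGAP1, and the remaining 3 were AURKB, BUB3 and SPC25.

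The number of genes at an unadjusted p under 0.05 depended on single libraries. Without FNI+I-125 replicate 1, 5 of the 41 genes were higher, where 6% of all genes tested were in that fit, and the median log2 fold change was 0.77. Without FNI replicate 3, or without FNI replicate 1, 12 genes were higher, where 6.27% and 6.2% of all genes tested were. Without FNI+I-125 replicate 2, 26 genes were higher, where 6.02% of all genes tested were. MKI67, CCNB2, KIF11, KIF20A and NUSAP1 stayed at an unadjusted p under 0.05 with each of the 6 libraries left out in turn. Their log2 fold changes had minima of 1.09, 1.15, 1.00, 1.15 and 0.84 over these fits. With both FNI+I-125 replicate 1 and FNI replicate 3 left out, a choice made after the values had been seen, 8 genes were higher at an unadjusted p under 0.05, where 6.44% of all genes tested were. The median log2 fold change of the 41 genes was then 0.49, and 38 of them were still above 0. MKI67 was at 0.78 in that fit and KIF20A at 0.90. The groups of 2 libraries each did not overlap for 28 genes, where 22.2% of all genes tested were higher without overlap.

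**Figure D4:**
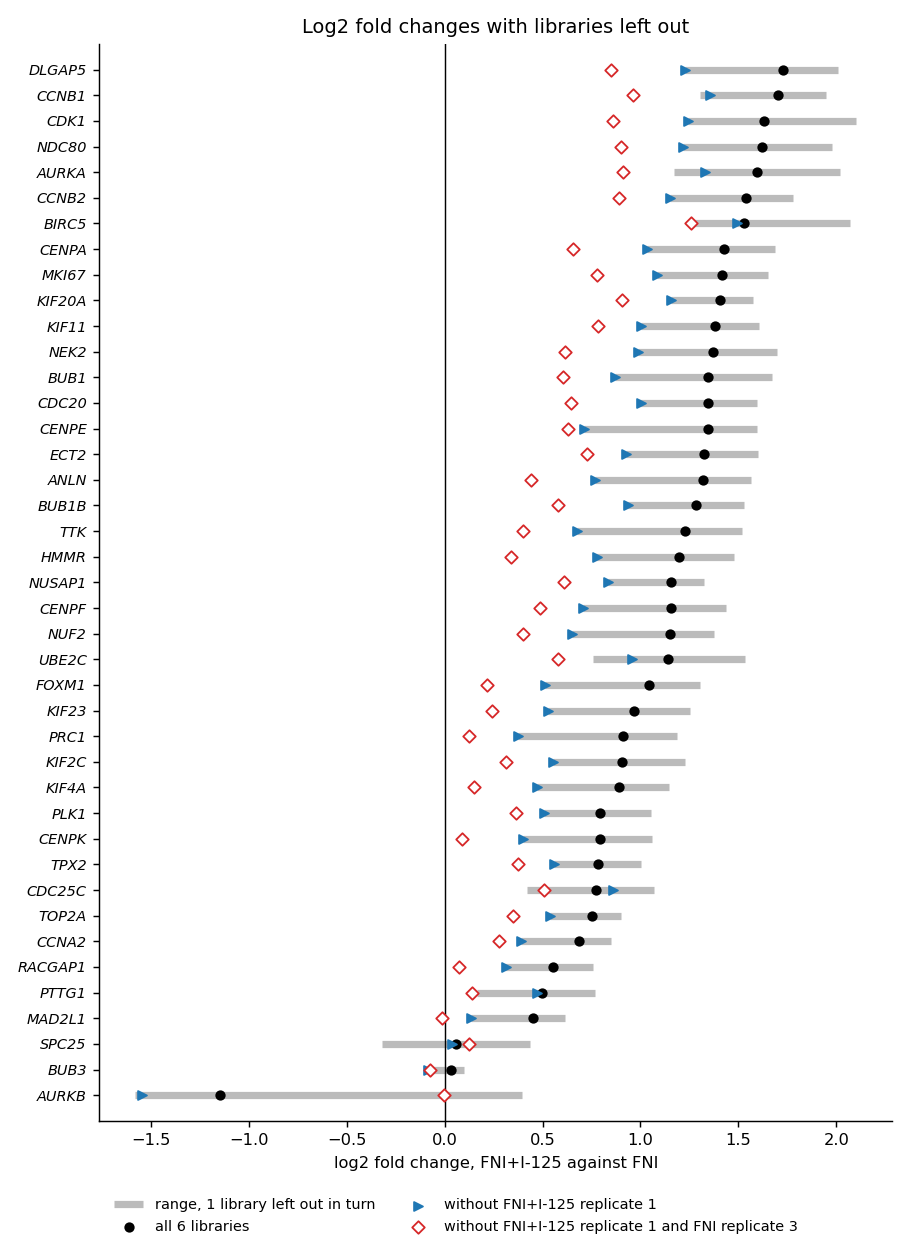
Log2 fold change of each of the 41 genes (x axis) with all 6 libraries (black), the range with 1 library left out in turn (grey bar), without FNI+I-125 replicate 1 (blue), and without that library and FNI replicate 3 (open red diamonds). The diamonds lie left of the black points for most genes, and 38 of the 41 stay above 0.

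Other genes of mitosis that were not in the list of 41 were also counted. Of 84 tested, 18 were higher and 1 was lower at an unadjusted p under 0.05, where 9.23% and 7.73% of all genes tested were. The median log2 fold change of the 84 genes was 0.66. CKS2, which encodes a small subunit of CDK complexes, was at 1.25 (SE 0.34), ARHGAP11A, a regulator of RhoA in cytokinesis, at 1.76 (SE 0.50), and KNL1, the kinetochore scaffold for the checkpoint, at 1.505 (SE 0.43). The gene that was lower was CDC25B, another phosphatase of CDK1, with 32.1, 35.5 and 34.4 CPM in the FNI libraries and 28.7, 23.8 and 28.0 CPM in the FNI+I-125 libraries. All FNI+I-125 libraries lay below all FNI libraries, at a log2 fold change of -0.34 (SE 0.13, adjusted p = 0.283 in edgeR's test). MIS18A, which loads CENPA onto centromeres, was at -0.66 (SE 0.29) and STMN1, a microtubule-destabilizing protein, at -0.86 (SE 0.57), with 0.08 for STMN1 without FNI replicate 3.

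Of the 13 subunits of the anaphase promoting complex tested, 0 were at an unadjusted or adjusted p under 0.05 in edgeR's test. DESeq2 also gave 0 at either. In edgeR's test, 17% of all genes tested were at an unadjusted p under 0.05 in either direction. Without overlap, 4 subunits were higher and 1 was lower, where 14.8% and 12.3% of all genes tested were. The median log2 fold change of the 13 subunits was 0.09, with a range from -0.28 to 0.52. Of the 38 G1/S and replication genes tested, 8 were higher and 0 were lower at an unadjusted p under 0.05. Over all genes tested, 9.23% were higher and 7.73% were lower at that p. The median log2 fold change of the 38 genes was 0.69. E2F3 (0.88, SE 0.25) and E2F2 (1.80, SE 0.54), transcription factors of S phase entry, and RRM2 (1.56, SE 0.47), a subunit of ribonucleotide reductase, had the smallest p-values. PRIM1 and POLA1, which encode subunits of the primase complex that starts DNA strands, had log2 fold changes of -0.22 (SE 0.34) and -0.08 (SE 0.16), and that of PRIM1 was 0.05 without FNI replicate 3.

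The CDK inhibitors and other genes of cell cycle exit did not share a direction, with 8 of 16 tested above 0, where 51.1% of all genes tested were. At an unadjusted p under 0.05 in edgeR's test, 3 were higher and 0 were lower, where 9.23% and 7.73% of all genes tested were. CDKN1A, which encodes the CDK inhibitor p21, had 41.7, 59.5 and 44.4 CPM in the FNI libraries and 106, 390 and 186 CPM in the FNI+I-125 libraries. The groups did not overlap, and the log2 fold change of CDKN1A was 2.23 (SE 0.49, adjusted p = 0.280 in edgeR's test), or 1.56 without FNI+I-125 replicate 2. FNI+I-125 replicate 1, the highest library for most mitotic genes, was the lowest of its group for CDKN1A. FNI+I-125 replicate 2, the lowest of its group for the summed level of the 41 genes, was the highest for CDKN1A. The FNI group did not have this reverse order, as FNI replicate 2 was highest for both, at 59.5 CPM of CDKN1A and a sum of 335 CPM. A link between CDKN1A and the mitotic genes was not tested. BTG2, an antiproliferative gene that p53 is known to switch on, was at a log2 fold change of 1.08 (SE 0.28), and E2F4, which acts with the pocket proteins in quiescent cells, at 0.37 (SE 0.14). CDKN1B, which encodes p27, was at -0.58 (SE 0.28), RBL2, which encodes the pocket protein p130, at -0.23 (SE 0.13) and E2F5, its E2F partner, at -0.54 (SE 0.30).

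The macrophage, neutrophil and T cell markers had log2 fold changes above 0, as most of the mitotic genes did. Within the FNI+I-125 group, the order of the libraries in their sums differed from that of the mitotic genes. The summed level of 7 macrophage markers was 200 to 795 CPM in the FNI libraries and 1052 to 1513 CPM in the FNI+I-125 libraries. All 7 had a log2 fold change above 0, and none was at 0 in any library. It was lowest in FNI replicate 3, as for the mitotic genes, and highest in FNI+I-125 replicate 2, where the mitotic genes were at 379 CPM. The 6 neutrophil markers summed to 8.16 to 143 CPM against 629 to 1546 CPM, again lowest in FNI replicate 3 and highest in FNI+I-125 replicate 1, and all 6 were above 0 in log2 fold change. The separation of these sums came from MMP9, which macrophages also make, with 39.4, 78.7 and 1.24 CPM in FNI against 89.8, 710 and 503 CPM in FNI+I-125. Each of the other 5 neutrophil markers overlapped between the groups, such as CSF3R, which was at 19.9, 13.5 and 0.71 CPM against 337, 9.80 and 35.2 CPM. The 7 T cell markers summed to 3.43 to 24.7 CPM against 20.8 to 67.1 CPM, with CD3G at 0 counts in FNI replicate 3.

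The summed level of the fibroblast markers, dominated by collagen transcripts, was lowest in FNI replicate 3 at 68975 CPM. This sum was highest in FNI+I-125 replicate 1 at 189254 CPM, and both are the same libraries as for the mitotic genes. The other FNI libraries had 137879 and 112371 CPM and the other FNI+I-125 libraries 115514 and 98124 CPM, so the sums overlapped between the groups. Of the 6 markers, 5 had a log2 fold change above 0 and DCN was below, at -0.42. DCN had 3673, 3340 and 4250 CPM in the FNI libraries, highest in replicate 3. It had 2866, 2974 and 2552 CPM in the FNI+I-125 libraries, without overlap. PDGFRA was lowest in FNI+I-125 replicate 2, at 156 CPM. All 8 Schwann cell markers had a log2 fold change below 0, with 3916 to 32997.5 CPM in the FNI libraries and 682 to 3545 CPM in the FNI+I-125 libraries. Their highest library was FNI replicate 3 and their lowest FNI+I-125 replicate 1, the reverse of the mitotic genes, and none of the 8 was at 0. Not every marker followed the sum, and NGFR, a marker of Schwann cells without myelin, was at 138 CPM in FNI replicate 3, its lowest value in the FNI group. The 5 skeletal muscle markers measured did not follow the mitotic genes in FNI+I-125 replicate 3. The part of each cell type in the level of the mitotic genes was not tested.

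**Figure D5:**
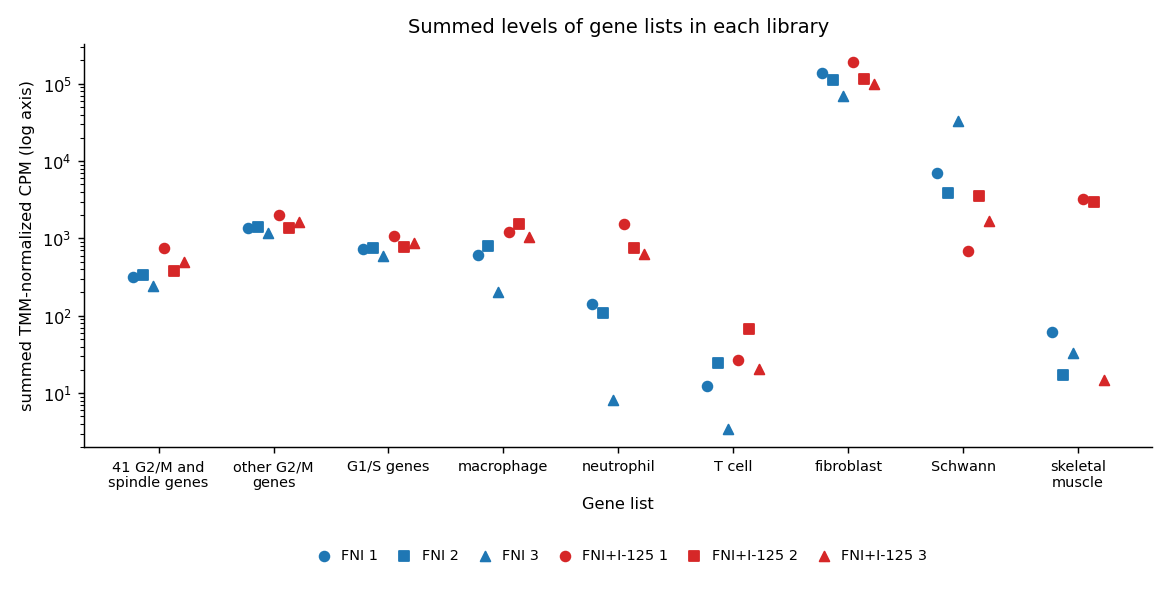
Summed CPM (log y axis) of the 41 genes, of the lists of other G2/M genes and G1/S genes, and of marker lists of 6 cell types in the FNI libraries (blue) and the FNI+I-125 libraries (red), with 1 point per library. The sums of the 41 genes and of the macrophage, neutrophil and fibroblast markers are lowest in FNI replicate 3, in which the sum of the Schwann cell markers is highest.

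Markers of endothelial cells summed to 2160 to 2706 CPM in the FNI libraries and 1683 to 2786 CPM in the FNI+I-125 libraries. Of the B and plasma cell markers tested, 4 of 5 had a log2 fold change above 0, with 18.4 to 515 CPM against 373 to 873 CPM, most of it JCHAIN, and MS4A1 was at 0 counts in FNI replicate 3. Keratinocyte markers reached 641 CPM in FNI replicate 1 and 1014 CPM in FNI+I-125 replicate 3, with 13.3 to 55.3 CPM in the other 4 libraries and KRT1 at 0 counts in FNI replicate 3 and FNI+I-125 replicate 1. Salivary gland markers ran from 18.8 CPM in FNI+I-125 replicate 2 to the value given above for FNI replicate 2, with KRT18 at 0 counts in FNI replicate 3 and ODAM at 0 in FNI replicates 2 and 3 and FNI+I-125 replicate 2. The satellite cell and regenerating muscle markers were at 113 and 165 CPM in FNI+I-125 replicates 1 and 2 and at 0.44 to 7.85 CPM elsewhere, with MYOD1 and MYF5 at 0 counts in all FNI libraries and in FNI+I-125 replicate 3. MYOG was at 0 counts in FNI replicates 2 and 3 and in FNI+I-125 replicate 3. Most of the summed level in FNI+I-125 replicates 1 and 2 was MYH3, an embryonic myosin. PAX7, the marker of satellite cells, had 1, 1 and 3 counts under injury alone against 13, 13 and 11 with the seed, so that it was higher in all FNI+I-125 libraries, replicate 3 included.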

How the data were processed

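RNA-seq libraries of 6 rabbit facial nerves were used, 3 with injury alone (FNI) and 3 with injury and a seed (FNI+I-125). The authors deposited raw counts per gene, without normalization, in 1 file per rabbit. The libraries were made with a TruSeq stranded mRNA kit, and the submitters' processing notes name HISAT2 and OryCun2.0. The counting program and its strand setting are not given in the sources used here. Total counts ran from 16031151 to 16798012, and a count of 0 in a library allows up to 3 counts, for counting error only.

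Counts were normalized by TMM, filtered with filterByExpr at a minimum count of 10, and tested with glmQLFit and glmQLFTest (edgeR 4.0.16, limma 3.58.1, R 4.3.3), two-sided, with Benjamini-Hochberg adjustment over 14003 genes. The standard error is the log2 fold change divided by the square root of F. DESeq2 1.42.0, limma-voom, other normalizations and filters, legacy = FALSE, a replicate block and leave-one-out fits were alternatives. The scripts were tested on simulated data.

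The text names all 41 genes, and of the other cell cycle lists the 3 genes with the smallest p in each direction. Markers at 0 were named as well. Some genes of these lists are not reported here. Cell type markers and cell cycle lists were compiled by hand. Of 2992 LOC identifiers, 542 were given a symbol from RefSeq (mOryCun1.1), and 25 identifiers were spreadsheet dates. No coordinates or sequences are given, and promoter motifs were not analysed here. The members and lists were chosen with earlier results of these data known, so their counts are descriptions, with no test over a list.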

Additional observations from a re-analysis of the deposited data

How the results depend on the processing

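The number of the 41 genes higher at an unadjusted p under 0.05, 23 with edgeR, was 18 to 25 under the other tests, normalizations, filters and the replicate block. In those fits 7.2% to 9.74% of all genes tested were higher at that p. The number ran from 5 to 26 with 1 library left out in turn, where 6% to 8.2% of all genes tested were higher. It was 8 with FNI replicate 3 and FNI+I-125 replicate 1 both left out, where 6.44% of all genes tested were higher. The median log2 fold change, 1.16 in the report, ran from 0.77 to 1.38 with 1 library left out and was 0.49 with both left out. The number of genes higher without overlap ran from 27 to 37 with 1 library left out, where 16.5% to 20.8% of all genes tested were. None of the 41 genes was lower at an unadjusted p under 0.05 in any of these fits. The criterion of the study called 0 genes with edgeR and 2 with DESeq2, against 0% and 3.23% of all genes tested. The unadjusted p of edgeR without a fold change gave 23, against 17% of all genes tested in either direction.

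Log2 fold changes turned sign for genes near 0 or with 1 high library. With upper-quartile normalization BUB3 was at -0.00841. With 1 library left out, BUB3 ran from -0.0868 to 0.0983 (-0.0168 without FNI replicate 1), AURKB from -1.58 to 0.39, SPC25 from -0.32 to 0.43, STMN1 from -1.21 to 0.0773 and PRIM1 from -0.42 to 0.0507. The positive ends of AURKB, STMN1 and PRIM1 came without FNI replicate 3. With both libraries left out, BUB3 was at -0.0760, MAD2L1 at -0.0114, STMN1 at 0.17 and PRIM1 at 0.0322. The causes were not tested.

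Replicate numbers are shared between the groups in the labels, but the deviations of same-numbered libraries from their group means correlated at 0.05, -0.19 and -0.14, so the numbers were not taken as pairs. With the number as a replicate block, 18 of the 41 genes were higher at an unadjusted p under 0.05, where 9.03% of all genes tested were. No library correlated best with the library of its own number in the other group. BIRC5, SPC25, CDC25C and HMMR had under 10 counts in at least 1 library.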
